A study of Mus musculus with 15 samples.

Results

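In cultured mouse astrocytes, 744 of 15362 genes tested (4.84%) were on the same side of all 5 untreated libraries in every one of 10 libraries exposed to lipopolysaccharide (LPS), whether or not ginsenoside Rg1 had been given first. Of these, 319 genes (2.08% of those tested) were higher and 425 (2.77%) were lower in all 10. A gene was taken when the lowest exposed library lay above the highest untreated one, or the highest exposed library below the lowest untreated one, in CPM (counts per M of the TMM-scaled library total). These are the differences from untreated cells that remained when Rg1 preceded LPS. The values that chose the genes are given as descriptions, with no test.

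The cells were primary astrocytes from mouse brain, and polyadenylated RNA was sequenced in 15 libraries, 5 per group. Control cells were untreated. The LPS group, which the submitters label SCI, received LPS at 1 µg/mL for 6 to 8 h. The third group, called Rg1 plus LPS here, received Rg1 at 80 µM for 12 h and then the same LPS dose for 6 to 8 h, so both exposed groups share the LPS. Rg1 is a saponin of ginseng. No group with Rg1 alone and no control kept through the 12 h of pretreatment was analysed here, so an effect of LPS that Rg1 left in place and an effect of Rg1 or of handling in the same direction cannot be told apart in the Rg1 plus LPS libraries. In the labels' treatment field its libraries are numbered Rg1 to Rg5, whereas the titles and the design text describe 5 replicates with Rg1, and these were followed. The labels give no strain, age or sex. They do not say whether replicates were independent cultures or animals, so the p-values reflect only how these samples varied, which may be technical.

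LPS, a component of the outer membrane of Gram-negative bacteria, binds TLR4 and through MyD88 releases NF-kB, which switches on chemokine, cytokine and inhibitor genes. Astrocytes also carry activity-regulated programs that growth factors, calcium and cAMP maintain in culture: immediate early transcription factors such as FOS, FOSB and EGR3, the phosphatases and Sprouty proteins that restrain MAP kinases, and secreted EGF-family ligands that feed the same receptors. The aryl hydrocarbon receptor (AhR), a ligand-activated transcription factor, drives its own repressor AHRR, the cytochrome CYP1A1 and the ADP-ribosyltransferase TIPARP, which lowers AhR activity in turn.

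Libraries held 34.2 to 41.8 M counts. The first principal component, which carried 40.83% of the variance, put the exposed groups on opposite sides of control. LPS libraries lay between 46.9 and 53.6, controls between -15.0 and -9.52 and Rg1 plus LPS libraries between -43.7 and -36.6. On the second, which carried 18.57%, controls lay between 31.3 and 40.7 and exposed libraries between -35.6 and 5.65, LPS replicate 3 being the one nearest to the controls. Without that replicate 442 genes were higher and 558 lower by the same rule of position, now over 9 exposed libraries, and 293 of the 319 and 416 of the 425 were among them. Marker sums and mean log2 values, here and below, use CPM of the library total without TMM scaling. A small constant was added before taking logs. Summed CPM of 15 astrocyte markers ranged from 12140 to 15270 in control, 8233 to 13160 with LPS and 9458 to 15030 with Rg1 plus LPS, and none of the 15 was at 0 in any library. Summed CPM of 15 microglia and macrophage markers ranged from 129 to 228 in control, 128 to 205 with LPS and 122 to 155 with Rg1 plus LPS, and none of these was at 0 either. Their mean log2 CPM was 1.20 to 2.80 in control, 1.28 to 2.67 with LPS and 0.46 to 1.36 with Rg1 plus LPS. Between Rg1 plus LPS and LPS, 8 of the 15 were called, counting either direction, against 45.4% of all genes tested. The median log2 difference of the 15 was -1.42. Endothelial markers summed to 131 to 158, 158 to 191 and 98.3 to 111 CPM in control, LPS and Rg1 plus LPS, with 1 to 4 of them at 0 in a library, and fibroblast and mural cell markers to 7568 to 8821, 7373 to 11020 and 4359 to 10250 CPM, with 1 or 2 at 0. Mitochondrially encoded genes took 2.49 to 2.80% of counts in control, 1.58 to 2.37% with LPS and 2.77 to 4.98% with Rg1 plus LPS. The part of these differences in the results below was not tested. In bulk RNA, fewer cells of a type and less RNA per cell cannot be told apart.

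The lower genes moved more than the higher ones. Their median log2 fold change, averaged over both exposed groups with equal weight (the pooled contrast), was -0.75, against 0.39 for the higher genes and 0.013 for all genes tested. At least a 2-fold pooled difference was found for 144 lower genes and 21 higher genes, and in each exposed group separately for 101 and 6. The nearest exposed and control libraries were at least 25% apart for 119 lower and 13 higher genes, and at least 2 times apart for 25 lower genes and 0 higher genes. At the margin of the rule, Wdr74 and Fnbp1 were just inside, with nearest libraries 1.00018 and 1.00013 times apart, and Tmem259 and Cnn3 just outside, at 0.99997 and 0.999973. Of all genes tested, 24.5% passed an adjusted p under 0.05 in the pooled contrast (edgeR quasi-likelihood F-test), 2052 higher (13.4%) and 1708 lower (11.1%). Counts of pooled calls in the gene lists below are to be read beside these shares. Only 15.5% of those called higher met the rule of position, against 24.8% of those called lower (319 and 423 genes). Lower genes were longer, with a median gene length of 4801 bases against 3656 for all genes tested and 3277 for higher genes. After a trend with gene length was removed, 363 of the 425 and 237 of the 319 still met the rule.

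Rg1 plus LPS was then compared with LPS alone. Over all genes tested 45.4% passed an adjusted p under 0.05 in that comparison, 22.2% higher and 23.2% lower with Rg1. Among higher genes, 53 (16.6%) were nearer to control with Rg1, 54 (16.9%) were farther from it and 212 (66.5%) had no call. Among lower genes 50 (11.8%) were nearer, 126 (29.6%) farther and 249 (58.6%) had no call. The rule bounds this comparison, because a gene that Rg1 had returned into the control range could not be taken. Where no call was made, the 95% interval of the log2 difference between the exposed groups reached a median of 0.157 to either side for higher and 0.28 for lower genes, which limits how like the groups can be said to be. Scaling to library size alone moved the median log2 difference between Rg1 plus LPS and LPS over all genes from 0.028 to 0.14.

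**Figure D1:**
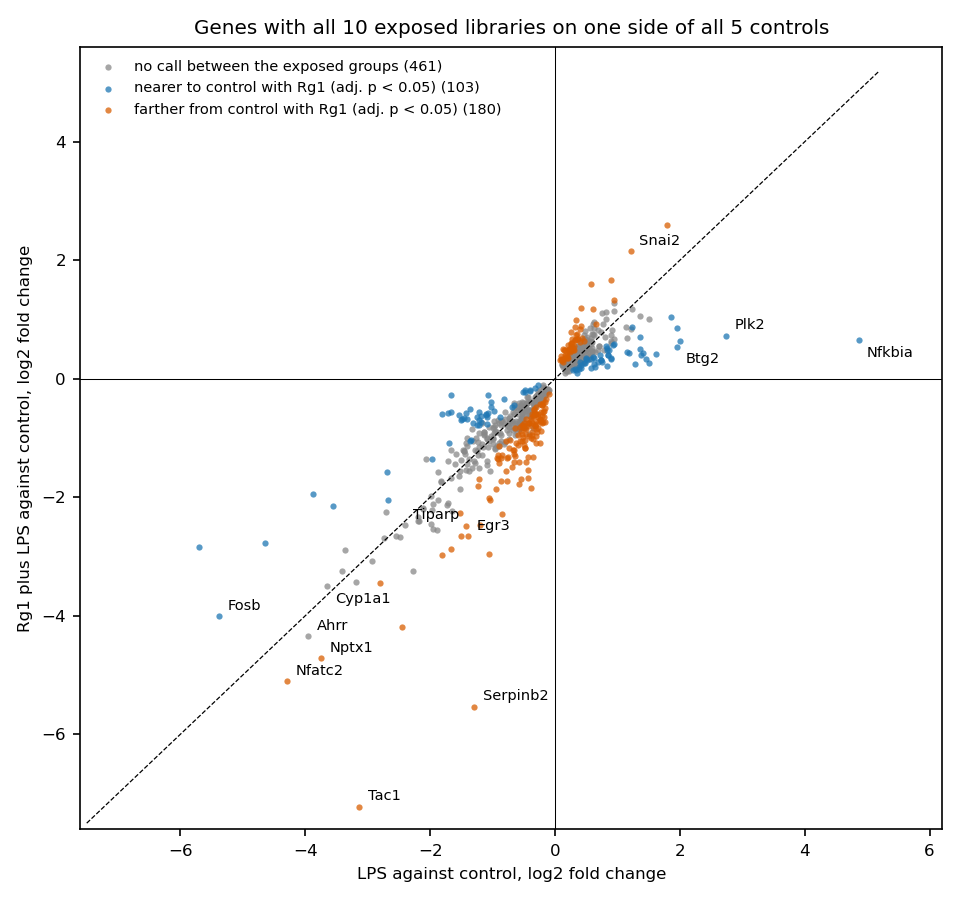
Each point is 1 of the 744 genes, with its log2 fold change against control in the LPS group on the x axis and in the Rg1 plus LPS group on the y axis. Both axes use the same 5 control libraries, and the choice of genes fixes that both have the same sign. Colours give the call for Rg1 plus LPS against LPS (103 nearer to control, 180 farther, 461 with no call), and the dashed line marks equal values. Nfkbia lies far to the right of the line and Tac1 and Serpinb2 far below it.

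Promoter sequences were taken from RefSeq for GRCm38.p6, as windows from 250 bases before to 50 after the annotated start, for 270 of the 319 higher and 322 of the 425 lower genes. An AP-1 motif (TGANTCA) was present in 9.32% of the lower genes' promoters, 3.42% of the higher genes' promoters and 5.68% of those of all genes tested. A CRE (TGACGTCA), bound by CREB and ATF proteins, was in 3.64%, 3.70% and 2.83%. An NF-kB motif (GGGA, any base, then TTTCC) was in 0%, 1.14% and 0.457%, and the core of the AhR response element (GCGTG) in 52.5%, 52.4% and 48.0%. Both strands were searched. Printed here, as the 150 bases before the start, are the windows of 4 named genes that were chosen because they hold an AP-1, CRE or NF-kB motif. Capitals mark the motif: an AP-1 motif 94 bases before the start in Serpinb2 (1 of its 2 listed promoters), a CRE 61 bases before it in Areg and 62 bases before it in Plk2, and an NF-kB motif, on the opposite strand, 29 bases before it in Nfkbia. Serpinb2 and Areg were lower and Nfkbia and Plk2 higher in all 10 exposed libraries. The regions are chr1:107511273-107511422 (plus strand), chr5:91139449-91139598 (plus), chr13:110394894-110395043 (plus) and chr12:55492648-55492797 (minus). A match in these letters is not evidence of binding.
Serpinb2: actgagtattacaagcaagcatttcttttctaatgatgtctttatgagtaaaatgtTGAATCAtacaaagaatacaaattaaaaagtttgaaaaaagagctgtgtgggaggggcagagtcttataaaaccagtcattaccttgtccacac
Areg: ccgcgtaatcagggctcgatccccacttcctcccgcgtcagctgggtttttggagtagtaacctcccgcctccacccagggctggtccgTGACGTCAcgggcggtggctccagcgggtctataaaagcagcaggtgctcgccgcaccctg
Plk2: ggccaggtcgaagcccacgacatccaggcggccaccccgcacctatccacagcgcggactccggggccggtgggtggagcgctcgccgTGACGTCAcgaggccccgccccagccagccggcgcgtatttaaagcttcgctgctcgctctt
Nfkbia: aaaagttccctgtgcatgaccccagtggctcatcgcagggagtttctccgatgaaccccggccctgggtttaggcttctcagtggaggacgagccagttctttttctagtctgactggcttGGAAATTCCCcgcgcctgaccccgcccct

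By the distance between the nearest exposed and control libraries, Nfatc2 stood farthest from its controls. It encodes a calcium-regulated transcription factor that calcineurin activates (chromosome 2, 168476410 to 168601657, GRCm38). Its CPM, in replicate order 1 to 5 as for all lists of values here, was 49.96, 51.4, 46.7, 55.0 and 50.3 in control, 2.26, 2.71, 3.69, 2.40 and 1.93 with LPS and 1.93, 1.02, 1.85, 1.41 and 1.17 with Rg1 plus LPS. Even the highest exposed library was 12.7 times below the lowest control. Log2 fold changes against control were -4.29 ± 0.17 with LPS and -5.10 ± 0.18 with Rg1 plus LPS (± SE, as throughout), and the gene was farther from control with Rg1 (log2 difference -0.81 ± 0.18, adjusted p = 0.00179, edgeR quasi-likelihood test with Benjamini-Hochberg adjustment, as for all calls here). Another family member, Nfatc4, was also lower, at 73.9 ± 3.60 CPM in control, 36.3 ± 2.41 with LPS and 37.9 ± 8.08 with Rg1 plus LPS (SD, n = 5 per group, as throughout), with no call between the exposed groups (log2 difference 0.066, 95% interval -0.17 to 0.30). In the list of 11 tested NFAT genes and targets, these were the only 2 that met the rule.

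Fosb, whose product pairs with JUN proteins in the AP-1 transcription factor, was at least 5 times below the lowest control in every exposed library (chromosome 7, 19302696 to 19310118). Its CPM was 93.1, 88.1, 69.2, 103 and 105 in control, 1.75, 1.63, 2.12, 3.33 and 2.23 with LPS and 13.8, 2.63, 3.88, 5.59 and 2.62 with Rg1 plus LPS. The Rg1 plus LPS libraries were mostly above the LPS libraries but none came near a control, and replicate 1 of that group was the highest. The log2 difference between the exposed groups was 1.37 ± 0.41, adjusted p = 0.0128. Without Rg1 plus LPS replicate 1 the difference was 0.73 (adjusted p = 0.026). The call was lost with limma voom (adjusted p = 0.0639) and without LPS replicates 2 and 3 (adjusted p = 0.0602). Of 14 AP-1 genes tested, 8 were called lower and 2 higher in the pooled contrast, and 3 were lower and 1 higher in all 10 libraries. Mafk, which encodes a small MAF factor and was among the lower ones, was 93.5 ± 2.02 CPM in control, 76.5 ± 5.76 with LPS and 69.8 ± 9.15 with Rg1 plus LPS. Mafk no longer met the rule after the length trend was removed. Fos, the single higher AP-1 gene, is described with the higher genes.

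The family did not move as a block, and a pooled mean hides this for several members. Junb had 148, 318 and 70.8 CPM in control, LPS and Rg1 plus LPS, above control in one exposed group and below it in the other. Fosl2 had 500.3, 502 and 173 CPM in the same order, so its LPS libraries overlapped control. Neither met the rule.

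Among immediate early genes of the EGR, NR4A and related families, 13 of 20 tested were called lower and 3 higher, and 5 were lower in all 10 libraries, namely Egr3, Egr4, Npas4, Klf4 and Klf10, with Btg2 the single higher one. Egr3, a zinc-finger factor downstream of MAP kinase and calcineurin signalling, had CPM of 76.9, 51.8, 58.5, 73.7 and 94.3 in control, 24.9, 29.9, 33.5, 23.5 and 23.5 with LPS and 6.79, 18.6, 11.6, 8.81 and 10.5 with Rg1 plus LPS. The groups formed a descending order with no overlap, and the log2 difference between the exposed groups was -1.26 ± 0.23, adjusted p = 0.000342. Klf10, a TGF-beta-inducible repressor, showed the same order: 93.7, 75.5, 94.8, 103 and 91.2 in control, 42.03, 44.4, 45.3, 48.9 and 38.5 with LPS and 17.4, 29.4, 22.5, 20.5 and 24.4 with Rg1 plus LPS CPM (log2 difference -0.94 ± 0.12, adjusted p = 8.17e-06). Npas4, a calcium-induced factor of neurons, was much lower in both groups at 6.22 ± 3.46 CPM in control, 1.35 ± 0.327 with LPS and 1.23 ± 0.515 with Rg1 plus LPS, and the exposed groups did not separate (log2 difference -0.14, 95% interval -0.90 to 0.63). Egr4 was low throughout, at 0.898 ± 0.421 CPM in control, 0.156 ± 0.0919 with LPS and 0.137 ± 0.106 with Rg1 plus LPS. Egr1, the best known gene of the family, did not meet the rule, with 165, 247 and 97.9 CPM in control, LPS and Rg1 plus LPS.

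Krüppel-like factors, zinc-finger regulators of growth and differentiation, were lower in 6 of 14 tested (Klf4, Klf5, Klf9, Klf10, Klf13 and Klf16), with none higher in all 10 libraries. Klf5 CPM was 26.2, 22.98, 25.8, 29.6 and 32.2 in control, 9.28, 8.30, 8.45, 12.5 and 9.42 with LPS and 9.83, 6.48, 7.09, 8.36 and 5.79 with Rg1 plus LPS, LPS replicate 4 being the highest exposed library. Its difference between the exposed groups (-0.35, adjusted p = 0.0606) was called with the replicate block (adjusted p = 0.0348). Klf13 was 58.7 ± 3.93 CPM in control, 31.4 ± 2.24 with LPS and 26.8 ± 2.34 with Rg1 plus LPS, and Klf9, also a glucocorticoid target, was 125 ± 12.4 CPM in control, 58.8 ± 12.6 with LPS and 73.2 ± 6.38 with Rg1 plus LPS. Klf9 was nearer to control with Rg1 and Klf13 farther from it (log2 differences 0.32 ± 0.12, adjusted p = 0.0415, and -0.23 ± 0.072, adjusted p = 0.017). The call between the exposed groups for Klf4 (-0.31 ± 0.12, adjusted p = 0.0498) was lost in 14 of 23 alternatives and that for Klf9 in 9.

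Of 19 DUSP, Sprouty and related genes, which restrain MAP kinase signalling, 11 were called lower and 3 higher in the pooled contrast, and Dusp2, Dusp5, Dusp10, Dusp14, Spry2 and Errfi1 were lower in all 10 exposed libraries. Dusp5, a nuclear phosphatase for ERK, had CPM of 106, 66.5, 78.3, 110.4 and 138 in control, 23.7, 19.5, 22.4, 34.9 and 24.8 with LPS and 22.996, 18.1, 14.9, 18.8 and 16.8 with Rg1 plus LPS. The highest exposed value was 34.9 and the lowest control 66.5, log2 fold changes were -1.99 ± 0.20 with LPS and -2.45 ± 0.20 with Rg1 plus LPS, with no call between the exposed groups (-0.45, 95% interval -0.86 to -0.044, adjusted p = 0.0665). That difference was called in 8 of 23 alternatives, among them the replicate block (adjusted p = 0.0307). Errfi1, an inhibitor of EGF receptor family kinases, was 147 ± 54.7 CPM in control, 65.3 ± 3.76 with LPS and 60.4 ± 4.27 with Rg1 plus LPS. Dusp14 was nearer to control with Rg1, at 34.9 ± 1.78 CPM in control, 17.7 ± 1.57 with LPS and 23.9 ± 2.64 with Rg1 plus LPS (log2 difference 0.43 ± 0.082, adjusted p = 0.00042). Dusp8, which dephosphorylates JNK and p38, was the one member of the list higher in all 10, at 15.3 ± 1.62 CPM in control, 40.7 ± 2.94 with LPS and 20.7 ± 3.15 with Rg1 plus LPS, and it too was nearer to control with Rg1 (log2 difference -0.98 ± 0.1, adjusted p = 8.73e-07). It lost its place under DESeq2 size factors and with no filter on low counts.

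Of 26 FGF, EGF, PDGF and VEGF ligand genes tested, whose receptors lie upstream of that pathway, 9 were called lower and 3 higher, and 6 (Areg, Hbegf, Tgfa, Fgf2, Vegfa and Pdgfc) were lower in all 10 libraries. Areg, encoding the EGF receptor ligand amphiregulin, had CPM of 11.9, 5.09, 6.33, 15.5 and 20.9 in control, 0.834, 0.895, 0.768, 2.79 and 1.252 with LPS and 2.71, 0.248, 0.124, 2.16 and 0.310 with Rg1 plus LPS. Control values ran from 5.09 to 20.9, and no exposed value was above 2.79. Hbegf, another ligand of that receptor and the most abundant of these genes in CPM, was 479 ± 87.0 CPM in control, 246 ± 43.6 with LPS and 213 ± 44.7 with Rg1 plus LPS, and Tgfa was 16.8 ± 3.15 CPM in control, 9.87 ± 1.21 with LPS and 6.62 ± 1.38 with Rg1 plus LPS. Tgfa was farther from control with Rg1 (log2 difference -0.58 ± 0.15, adjusted p = 0.00544), while no call was made for Hbegf (-0.21, 95% interval -0.54 to 0.12). Fgf2, a mitogen of astrocytes, was 61.1 ± 5.03 CPM in control, 41.7 ± 3.43 with LPS and 33.3 ± 5.21 with Rg1 plus LPS. Vegfa was 101 ± 27.2 CPM in control, 47.4 ± 10.6 with LPS and 50.1 ± 13.8 with Rg1 plus LPS, but met the rule neither under library-size scaling nor after the length trend was removed, and Pdgfc lost its place under library-size scaling. Among 26 growth factor receptor genes, 3 were lower in all 10: Met, at 86.9 ± 3.07 CPM in control, 41.9 ± 6.04 with LPS and 41.9 ± 4.15 with Rg1 plus LPS with log2 fold changes of -1.05 ± 0.089 with LPS and -1.05 ± 0.088 with Rg1 plus LPS, Pdgfra, at 42.2 ± 13.2 CPM in control, 17.9 ± 4.76 with LPS and 12.0 ± 1.89 with Rg1 plus LPS, and Fgfr3, at 109 ± 4.73 CPM in control, 75.4 ± 14.7 with LPS and 83.6 ± 10.1 with Rg1 plus LPS.

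The AhR list had the highest share of lower genes of all lists examined. Of 10 genes tested 7 were called lower and 6 were lower in all 10 exposed libraries, and none was called higher. The list was written with earlier results of these data known, so the share is a description. Ahrr, the AhR repressor, had CPM of 17.0, 13.7, 16.6, 12.8 and 18.3 in control, 1.51, 0.976, 0.676, 0.734 and 1.13 with LPS and 0.894, 0.943, 0.371, 0.798 and 0.834 with Rg1 plus LPS. No exposed library exceeded 1.51, log2 fold changes were -3.95 ± 0.23 with LPS and -4.35 ± 0.24 with Rg1 plus LPS, and no call separated the exposed groups (-0.39, 95% interval -0.91 to 0.13). Cyp1a1, the classical AhR-induced cytochrome (chromosome 9, 57687928 to 57703824), had CPM of 93.6, 57.2, 71.0, 52.0 and 98.5 in control, 6.16, 3.39, 0.738, 12.2 and 6.86 with LPS and 14.6, 3.75, 2.30, 9.26 and 3.05 with Rg1 plus LPS. The exposed libraries varied widely among themselves, and the interval of the difference between both groups was correspondingly wide (0.16, 95% interval -1.03 to 1.35). Tiparp had CPM of 280.0, 302, 274, 305 and 308 in control, 58.8, 51.6, 47.5, 64.5 and 54.4 with LPS and 74.5, 49.1, 46.3, 58.9 and 36.6 with Rg1 plus LPS. Its log2 fold changes, -2.41 ± 0.15 with LPS and -2.47 ± 0.15 with Rg1 plus LPS, were almost the same size, and the difference between exposed groups was -0.061, 95% interval -0.36 to 0.24.

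The other AhR list genes were lower by less. Cyp1b1, a cytochrome of the same family, was 773 ± 45.3 CPM in control, 545 ± 42.5 with LPS and 453 ± 78.3 with Rg1 plus LPS. Aldh3a1, an aldehyde dehydrogenase, was 6.50 ± 1.02 CPM in control, 2.37 ± 0.445 with LPS and 2.79 ± 0.966 with Rg1 plus LPS. The receptor gene Ahr was 16.8 ± 2.66 CPM in control, 12.5 ± 0.809 with LPS and 5.76 ± 2.12 with Rg1 plus LPS, and was farther from control with Rg1 (log2 difference -1.11 ± 0.20, adjusted p = 0.000258), its LPS libraries being close to control. Per length, in mean control FPKM, recomputed here from TMM-scaled CPM and gene length, the order was Cyp1b1 (149.8), Tiparp (70.7), Cyp1a1 (26.7), Aldh3a1 (3.55), Ahr (3.06) and Ahrr (2.70). Nqo1, an AhR target that the oxidative stress factor NRF2 also drives, overlapped between all groups, at 218 ± 46.4 CPM in control, 225 ± 59.4 with LPS and 235 ± 107 with Rg1 plus LPS. Arnt, the dimerisation partner of AhR, did not meet the rule either (50.6, 54.6 and 39.6 CPM in control, LPS and Rg1 plus LPS).

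Clock genes were lower in 7 of 20 tested and higher in none. Nr1d1, the repressor REV-ERB alpha that closes a loop of the clock, had CPM of 67.5, 83.2, 70.4, 61.6 and 63.7 in control, 23.2, 25.2, 25.0, 26.1 and 20.6 with LPS and 49.6, 40.03, 45.2, 45.5 and 47.2 with Rg1 plus LPS. The Rg1 plus LPS libraries stood between control and LPS with no overlap (log2 difference 0.92 ± 0.088, adjusted p = 3.66e-07). Per2, Cry2 and Ciart, repressors in the same circuit, took the same intermediate place: Per2 had 18.6, 6.53 and 11.4 CPM, Cry2 65.1, 28.1 and 40.04 and Ciart 5.82, 2.17 and 3.89, in the order control, LPS and Rg1 plus LPS, with adjusted p of 0.000509, 1.36e-05 and 0.000586 between the exposed groups. Bmal1, Cry1 and Bhlhe40 went the other way and were farther from control with Rg1, with 37.4, 30.3 and 24.8 CPM for Bmal1, 20.7, 16.2 and 10.2 for Cry1 and 179, 95.1 and 70.6 for Bhlhe40. The call for Bmal1 between the exposed groups (adjusted p = 0.0232) was lost in 7 of 23 alternatives, and Bmal1 no longer met the rule after the length trend was removed.

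Of 17 genes tested in the list of glucocorticoid receptor targets, which includes the receptor gene, 6 were called lower and 3 higher in the pooled contrast. The median pooled log2 fold change of the list was -0.011. By the rule of position 5 were lower and none was higher, against 2.77% and 2.08% of all genes tested. Sgk1, a kinase gene that glucocorticoids induce, was 554 ± 112 CPM in control, 201.1 ± 71.2 with LPS and 239 ± 47.1 with Rg1 plus LPS. Pdk4, which restrains pyruvate entry into mitochondria, was 63.4 ± 2.91 CPM in control, 34.8 ± 3.66 with LPS and 32.9 ± 5.92 with Rg1 plus LPS with no call between the exposed groups (-0.081, 95% interval -0.30 to 0.13). The receptor gene Nr3c1 had CPM of 133, 142, 128, 128 and 135 in control, 117, 111, 106, 108 and 102 with LPS and 69.1, 78.4, 77.2, 66.9 and 64.5 with Rg1 plus LPS. LPS libraries lay just under control and the Rg1 plus LPS libraries well under both (log2 difference -0.61 ± 0.062, adjusted p = 7.55e-07).

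**Figure D2:**
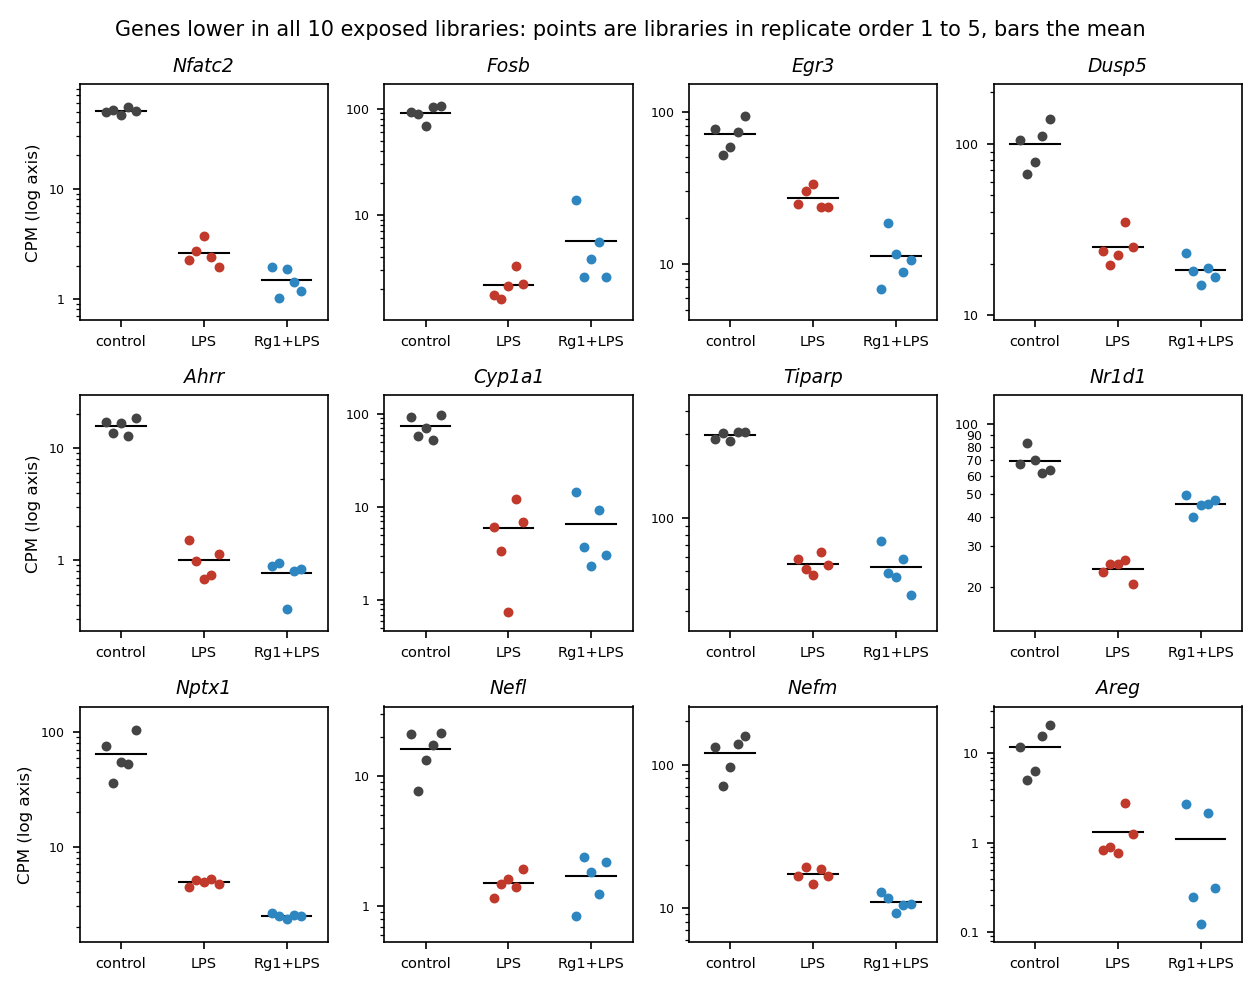
Each panel shows 1 gene that was lower in all 10 exposed libraries, with CPM on a log axis by group. Points are single libraries in replicate order and bars are group means. Nfatc2 and Ahrr show the widest empty space between control and exposed libraries. In the Nr1d1 panel every Rg1 plus LPS library lies between the other groups, with no overlap.

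Genes of neuronal structure and synapses were among the lower genes with the largest differences. Nptx1, a secreted pentraxin that clusters glutamate receptors, had CPM of 76.4, 36.3, 54.6, 53.1 and 105 in control, 4.41, 5.15, 4.89, 5.19 and 4.66 with LPS and 2.61, 2.48, 2.32, 2.501 and 2.46 with Rg1 plus LPS. Nefl, the light neurofilament subunit, had CPM of 21.0, 7.67, 13.3, 17.4 and 21.5 in control, 1.16, 1.49, 1.63, 1.41 and 1.93 with LPS and 0.845, 2.38, 1.83, 1.251 and 2.19 with Rg1 plus LPS, and Nefm, the medium subunit, 132, 71.0, 95.6, 140.1 and 159 in control, 16.7, 19.2, 14.8, 18.5 and 16.7 with LPS and 13.0, 11.7, 9.20, 10.5 and 10.7 with Rg1 plus LPS. All 3 were several times lower in every exposed library than in the lowest control, which was replicate 2 for each. Nefm and Nptx1 were farther from control with Rg1 (log2 differences -0.64 ± 0.18, adjusted p = 0.0078, and -0.97 ± 0.23, adjusted p = 0.00264), and Nefl had no call (0.16, 95% interval -0.50 to 0.81). Of 31 synapse and neurofilament genes tested, 7 were called lower and 2 higher, 5 were lower in all 10 (with Nptx2, at 6.34 ± 2.39 CPM in control, 1.91 ± 0.470 with LPS and 1.44 ± 0.467 with Rg1 plus LPS, and Syt11, at 373 ± 7.36 CPM in control, 310.1 ± 31.8 with LPS and 289 ± 18.4 with Rg1 plus LPS), and Homer3 was higher. Homer3 differed little, at 78.2 ± 2.26 CPM in control, 86.0 ± 2.40 with LPS and 90.0 ± 2.67 with Rg1 plus LPS. It lost its place under library-size scaling and with no filter on low counts. Summed CPM of 17 neuron markers, which include Nefl and Nefm, ranged from 674 to 778 in control, 514 to 662 with LPS and 514 to 718 with Rg1 plus LPS. Between 3 and 6 of them were at 0 in control libraries, 2 to 5 with LPS and 0 to 4 with Rg1 plus LPS. Their part in the lower neurofilament and pentraxin values was not tested.

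Of the 15 astrocyte markers, 5 were called lower, none higher, and Sox9 and Gja1 were lower in all 10 libraries. Sox9, a transcription factor that specifies astrocytes, had CPM of 177, 196, 191, 197 and 205 in control, 62.6, 77.3, 86.4, 67.9 and 56.2 with LPS and 116, 128, 158, 97.9 and 113 with Rg1 plus LPS. Rg1 plus LPS libraries lay between the other groups (log2 difference 0.81 ± 0.12, adjusted p = 5.6e-05). Gja1, the gap junction protein connexin 43, was 912 ± 70.8 CPM in control, 573 ± 115 with LPS and 498 ± 134 with Rg1 plus LPS with no call between the exposed groups (-0.20, 95% interval -0.55 to 0.14). Gfap, the intermediate filament protein used to mark astrocytes, was 4017, 2849 and 3167 CPM in control, LPS and Rg1 plus LPS, and its ranges overlapped. Of 33 reactive astrocyte genes, 6 were called lower and 4 higher in the pooled contrast. The median log2 fold change of this list was 0.18 with LPS and -0.34 with Rg1 plus LPS, and 22 were called between the exposed groups. By the rule of position, Vim, Cd109, Emp1 and B3gnt5 were lower in all 10 and none was higher. Emp1 was 583 ± 108 CPM in control, 306 ± 75.9 with LPS and 265 ± 37.01 with Rg1 plus LPS and Cd109 516 ± 19.6 CPM in control, 375 ± 49.5 with LPS and 286 ± 45.9 with Rg1 plus LPS. Vim was 7701 ± 265 CPM in control, 6360.1 ± 222 with LPS and 7149 ± 146 with Rg1 plus LPS, and lost its place under library-size scaling.

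Some lower genes were much lower with Rg1 than with LPS alone. Tac1, the precursor of substance P, had CPM of 13.7, 9.95, 10.8, 17.2 and 13.8 in control, 1.10, 1.22, 2.92, 0.565 and 1.68 with LPS and 0, 0.0248, 0.148, 0.133 and 0.119 with Rg1 plus LPS. LPS libraries were already at most 2.92, and those with Rg1 were close to 0 (log2 difference -4.09 ± 0.52, adjusted p = 1.32e-05). Serpinb2, a plasminogen activator inhibitor, had CPM of 8.19, 3.96, 3.34, 7.14 and 11.4 in control, 3.25, 2.98, 1.54, 3.25 and 2.83 with LPS and 0.459, 0.0496, 0.0494, 0.106 and 0.0477 with Rg1 plus LPS, so that LPS replicate 3 lay well under the lowest control and the other LPS libraries just under it. Without the length trend it did not meet the rule. Hk2, the inducible hexokinase that begins glycolysis, had CPM of 90.3, 83.3, 81.6, 103 and 102 in control, 65.5, 66.3, 79.7, 64.6 and 75.7 with LPS and 31.4, 21.2, 24.4, 28.6 and 22.4 with Rg1 plus LPS, with LPS replicate 3 just below control (log2 difference -1.46 ± 0.11, adjusted p = 1.99e-08). Slc16a10, an aromatic amino acid transporter, and Sema7a, a membrane-anchored semaphorin, were also lower by more with Rg1, at 8.63 ± 0.742 CPM in control, 4.78 ± 0.993 with LPS and 1.77 ± 1.16 with Rg1 plus LPS, and 144 ± 49.6 CPM in control, 62.5 ± 19.1 with LPS and 26.0 ± 9.27 with Rg1 plus LPS.

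Others were lowest with LPS alone and nearer to control with Rg1. Ephb3, a receptor for ephrins, had CPM of 24.5, 24.1, 23.3, 25.1 and 24.0 in control, 4.92, 5.34, 9.71, 8.33 and 6.19 with LPS and 16.6, 14.5, 14.9, 16.7 and 17.2 with Rg1 plus LPS (log2 difference 1.21 ± 0.15, adjusted p = 5e-06). Rfx2, a factor for cilia genes, was 22.9 ± 1.27 CPM in control, 7.03 ± 0.650 with LPS and 15.3 ± 2.18 with Rg1 plus LPS. Tmem200c, a membrane protein gene, was 9.08 ± 0.528 CPM in control, 2.86 ± 0.242 with LPS and 7.52 ± 0.582 with Rg1 plus LPS, with Rg1 plus LPS values up to 8.48 just under the lowest control of 8.60, and it lost its place under library-size scaling. Dusp2, a nuclear MAP kinase phosphatase, was 6.77 ± 2.27 CPM in control, 0.573 ± 0.375 with LPS and 1.53 ± 0.868 with Rg1 plus LPS, lost its place likewise, and its call between the exposed groups was lost in 3 of 23 alternatives. Otud1 and Trib1, listed as brakes on inflammatory signalling, were 59.8, 22.5 and 37.3 and 132, 40.4 and 61.9 CPM in control, LPS and Rg1 plus LPS. They were the only 2 of 20 tested genes in that list that met the rule. In the pooled contrast 7 of the 20 were called higher and 4 lower.

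A further set was lower to nearly the same extent in both exposed groups. By the rule of narrowest interval, these were Irf2bpl, Cbarp, Nmnat2, Mideas and Mat2a. Mideas, a subunit of a histone deacetylase complex, was 59.3 ± 4.63 CPM in control, 30.6 ± 1.34 with LPS and 32.2 ± 3.70 with Rg1 plus LPS (difference between exposed groups 0.071, 95% interval -0.094 to 0.24). Mat2a, which makes S-adenosylmethionine, was 615 ± 82.7 CPM in control, 400.4 ± 15.3 with LPS and 377 ± 29.7 with Rg1 plus LPS (-0.086, 95% interval -0.26 to 0.088). Cbarp, a calcium channel regulator, was 48.7 ± 3.96 CPM in control, 32.4 ± 0.913 with LPS and 32.1 ± 3.08 with Rg1 plus LPS (-0.013, 95% interval -0.17 to 0.14). Tbc1d30, a Rab GTPase-activating protein gene, was lower by far more, at 10.1 ± 1.35 CPM in control, 0.977 ± 0.265 with LPS and 1.35 ± 0.461 with Rg1 plus LPS. Traf5, an adaptor of TNF receptors, was 16.5 ± 1.77 CPM in control, 4.65 ± 0.799 with LPS and 5.01 ± 1.20 with Rg1 plus LPS (0.11, 95% interval -0.23 to 0.44). Tet3, an enzyme that oxidises methylated cytosine, was 41.1 ± 1.16 CPM in control, 14.3 ± 0.964 with LPS and 8.52 ± 0.904 with Rg1 plus LPS, and farther from control with Rg1 (log2 difference -0.75 ± 0.076, adjusted p = 7.98e-07). Arhgap29, which switches off RhoA, had an ordered pattern with little spread, 156, 151, 152, 139 and 159 in control, 91.8, 87.2, 89.9, 84.0 and 86.8 with LPS and 50.1, 56.4, 50.3, 49.999 and 48.9 with Rg1 plus LPS CPM.

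Among the higher genes, Fos was the member of the AP-1 family that went up (chromosome 12, 85473890 to 85477274). Its CPM was 23.8, 23.8, 19.9, 30.2 and 23.1 in control, 39.0, 51.9, 60.1, 36.1 and 39.2 with LPS and 119, 74.2, 83.6, 56.8 and 50.2 with Rg1 plus LPS. All exposed values were above all controls, the Rg1 plus LPS libraries were farther from control on average (log2 difference 0.76 ± 0.21, adjusted p = 0.0072), and replicates 4 and 5 of that group overlapped the LPS libraries. Fos was thus higher while Fosb, its close relative, was lower in the same 10 libraries. Snai2, a repressor of epithelial genes, had CPM of 4.52, 5.99, 4.17, 3.31 and 3.03 in control, 13.0, 8.84, 6.02, 9.54 and 11.2 with LPS and 9.66, 27.1, 17.4, 16.6 and 23.4 with Rg1 plus LPS (log2 difference 0.95 ± 0.26, adjusted p = 0.00692). LPS replicate 3, at 6.02, was barely above the highest control at 5.99. Snai2 lost its place under library-size scaling and with no filter on low counts. Leng8 CPM was 35.6, 29.9, 36.1, 29.4 and 35.8 in control, 42.1, 44.8, 44.7, 37.9 and 40.1 with LPS and 70.8, 59.0, 66.5, 69.3 and 67.1 with Rg1 plus LPS, with a small step from control to LPS and a larger one to Rg1 plus LPS (log2 difference 0.67 ± 0.076, adjusted p = 2.93e-06). Shfl, an interferon-induced inhibitor of viral frameshifting, was 8.15 ± 0.762 CPM in control, 10.9 ± 0.905 with LPS and 18.6 ± 1.92 with Rg1 plus LPS. Cenatac, a component of the minor spliceosome, was 1.96 ± 0.327 CPM in control, 2.94 ± 0.408 with LPS and 5.99 ± 1.03 with Rg1 plus LPS. It lost its place under library-size scaling and with no filter on low counts. Rasl11b, a small GTPase gene, was 4.95 ± 0.622 CPM in control, 9.55 ± 1.02 with LPS and 12.4 ± 2.27 with Rg1 plus LPS.

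Other higher genes had ranges that overlapped between the exposed groups, among them Adm, the vasodilator peptide adrenomedullin (chromosome 7, 110627657 to 110629820). Its CPM was 33.4, 27.6, 28.9, 28.7 and 33.5 in control, 90.7, 56.2, 53.6, 72.7 and 83.1 with LPS and 73.5, 67.9, 55.7, 69.9 and 75.2 with Rg1 plus LPS. Every exposed library was at least 1.6 times the highest control, log2 fold changes were 1.23 ± 0.13 with LPS and 1.17 ± 0.13 with Rg1 plus LPS, and the difference between the exposed groups was -0.058, 95% interval -0.33 to 0.22. Id3, an inhibitor of basic helix-loop-helix factors that BMP signalling induces, had CPM of 214, 227, 222, 241 and 214 in control, 465, 505, 559, 427 and 495 with LPS and 271, 452, 457, 360.2 and 509 with Rg1 plus LPS, and replicate 1 of Rg1 plus LPS was the lowest exposed library (difference -0.26, 95% interval -0.53 to 0.012). Sox8, a relative of Sox9, was higher while Sox9 was lower. It had CPM of 9.30, 7.37, 9.06, 7.81 and 11.1 in control, 15.0, 15.6, 14.2, 17.7 and 15.9 with LPS and 27.9, 15.6, 14.3, 25.3 and 15.0 with Rg1 plus LPS, with replicates 1 and 4 of Rg1 plus LPS above all others (difference 0.32, 95% interval -0.049 to 0.70). Hspa8, the constitutive heat shock protein of the HSP70 family, ranged over 760.5 to 796 in control, 1025 to 1279.8 with LPS and 1034 to 1536 with Rg1 plus LPS.

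By the rule of narrowest interval, Acin1, Wsb1, Pnn, Rgs19 and Mier2 were named among the higher genes without a call. Acin1, a component of the exon junction machinery, had CPM of 54.0, 59.4, 60.9, 54.1 and 56.8 in control, 90.2, 87.7, 81.4, 90.2 and 89.6 with LPS and 104, 92.4, 92.2, 89.9 and 95.2 with Rg1 plus LPS (difference between exposed groups 0.11, 95% interval -0.01 to 0.22), and Pnn, a splicing-associated protein, was 22.6 ± 1.86 CPM in control, 34.2 ± 3.17 with LPS and 34.7 ± 3.25 with Rg1 plus LPS (0.019, 95% interval -0.16 to 0.19). Wsb1, a ubiquitin ligase subunit, was 54.8 ± 2.99 CPM in control, 89.6 ± 9.59 with LPS and 80.0 ± 5.15 with Rg1 plus LPS, Rgs19, a regulator of G-protein signalling, 15.4 ± 0.928 CPM in control, 26.8 ± 2.44 with LPS and 25.3 ± 2.72 with Rg1 plus LPS, and Mier2, a corepressor, 12.7 ± 0.742 CPM in control, 19.4 ± 2.14 with LPS and 21.5 ± 2.53 with Rg1 plus LPS. Ddias and Zbtb40 were higher from lower levels, at 5.08, 9.00 and 10.3 and 3.14, 6.03 and 7.61 CPM in control, LPS and Rg1 plus LPS. Zbtb40 lost its place under library-size scaling.

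Among the higher genes, Nfkbia differed most between the exposed groups. It encodes I-kappa-B alpha, which NF-kB induces and which returns NF-kB to the cytoplasm (chromosome 12, 55489409 to 55492647). Its CPM was 23.02, 24.1, 26.3, 22.9 and 22.3 in control, 647, 707, 794, 646 and 661 with LPS and 54.7, 31.1, 29.7, 35.5 and 35.8 with Rg1 plus LPS. The LPS mean was 691 CPM, and the Rg1 plus LPS libraries were just above control, the closest pair being 29.7 against 26.3 CPM. The log2 difference between the exposed groups was -4.21 ± 0.15, adjusted p = 1.81e-12, and log2 fold changes against control were 4.86 ± 0.15 with LPS and 0.65 ± 0.13 with Rg1 plus LPS. Ikbke, a kinase of the interferon arm, was the only other higher gene among 15 NF-kB and I-kappa-B genes tested, at 7.49 ± 0.883 CPM in control, 19.3 ± 2.36 with LPS and 10.7 ± 0.712 with Rg1 plus LPS, although 11 of the 15 were called higher in the pooled contrast.

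Plk2, a stress-induced kinase, shared this shape, with CPM of 48.0, 41.4, 35.4, 40.9 and 50.4 in control, 319, 260.0, 207, 310.1 and 352 with LPS and 76.5, 76.7, 55.5, 66.1 and 83.2 with Rg1 plus LPS. Btg2, an antiproliferative gene that p53 induces, had CPM of 43.3, 44.1, 41.0, 43.7 and 43.3 in control, 169, 167, 174, 149 and 178 with LPS and 56.5, 70.9, 55.9, 60.4 and 70.1 with Rg1 plus LPS. Rin3, a Rab5 exchange factor, was 9.37 ± 1.10 CPM in control, 37.5 ± 4.79 with LPS and 14.5 ± 2.01 with Rg1 plus LPS, and Foxp4, a forkhead repressor, 37.6 ± 2.12 CPM in control, 107 ± 7.14 with LPS and 45.2 ± 2.64 with Rg1 plus LPS. For all 4 the Rg1 plus LPS libraries lay between control and the LPS libraries (log2 difference -2.02 ± 0.14, adjusted p = 1.86e-08 for Plk2, and -1.24 ± 0.062, adjusted p = 1.53e-10 for Foxp4). Rhof, a small GTPase, had 2.41 ± 0.322 CPM in control, 8.71 ± 0.823 with LPS and 5.00 ± 0.831 with Rg1 plus LPS, and Tbx15, a T-box factor, 45.9 ± 3.93 CPM in control, 108 ± 7.08 with LPS and 83.8 ± 9.72 with Rg1 plus LPS, and both kept a larger part of the difference with Rg1. Dll1, a Notch ligand, was higher from a low level, at 0.613 ± 0.180 CPM in control, 2.38 ± 0.339 with LPS and 1.12 ± 0.169 with Rg1 plus LPS.

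**Figure D3:**
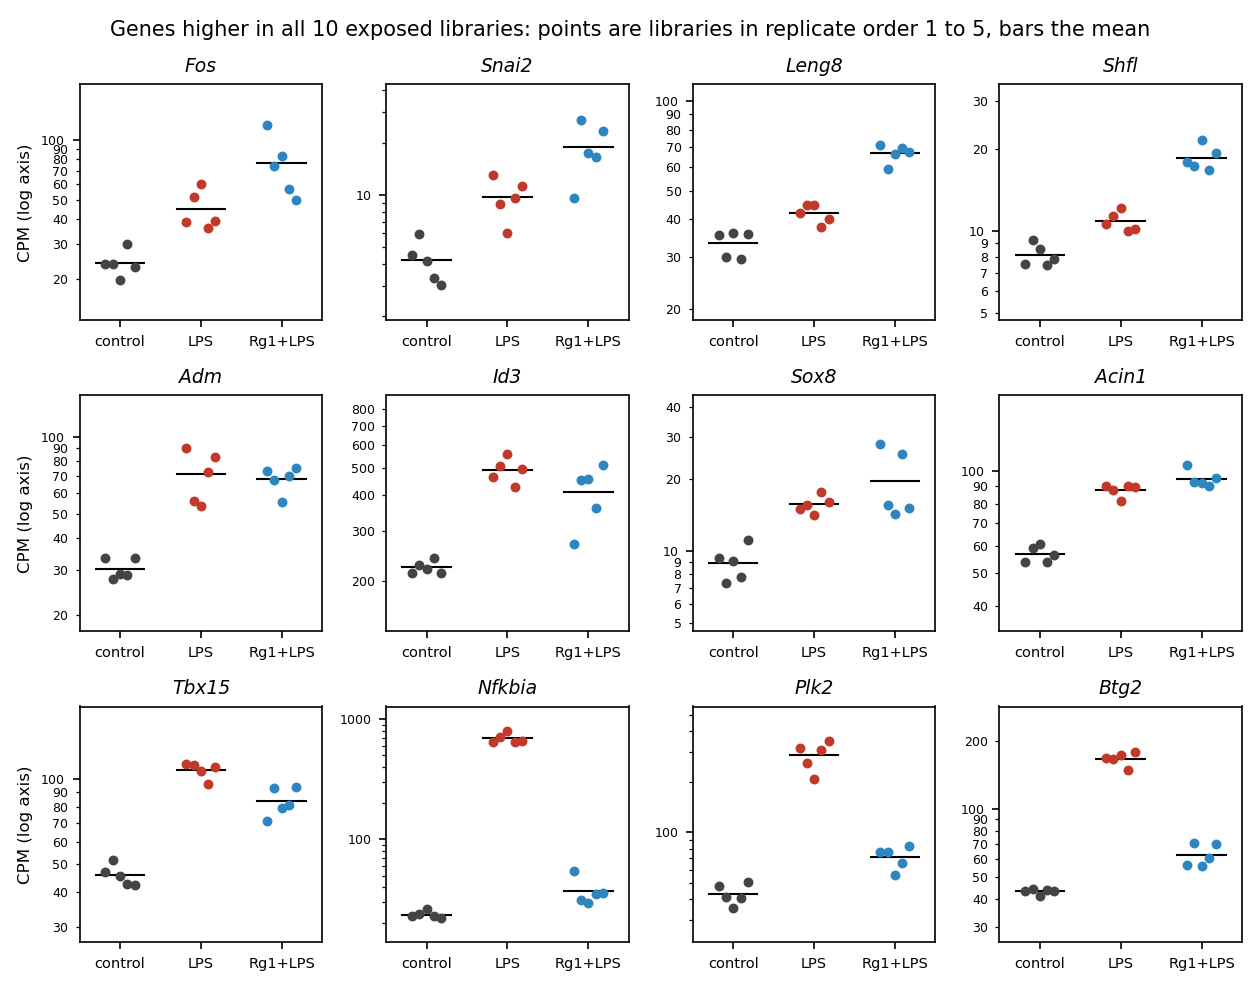
Each panel shows 1 gene that was higher in all 10 exposed libraries, with CPM on a log axis by group. Points are single libraries in replicate order and bars are group means. In the top row Rg1 plus LPS is farther from control than LPS, in the middle row no call separates them, and in the bottom row Rg1 plus LPS is nearer.

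The receptor side of the pathway named in the series title gave 1 gene that met the rule. Tlr4, the LPS receptor, was lower in all 10 exposed libraries, with CPM of 30.8, 33.1, 29.4, 32.9 and 28.9 in control, 26.4, 20.6, 15.4, 26.3 and 16.7 with LPS and 18.4, 21.7, 18.7, 19.3 and 14.8 with Rg1 plus LPS (log2 fold changes -0.56 ± 0.14 with LPS and -0.74 ± 0.14 with Rg1 plus LPS, difference between exposed groups -0.18, 95% interval -0.48 to 0.11). LPS replicates 1 and 4 were close to control and the rest further below. Myd88, its adaptor, Nfkb1 and Rela, subunits of NF-kB, were higher with LPS alone and did not meet the rule: Myd88 had 23.1, 44.7 and 24.2 CPM in control, LPS and Rg1 plus LPS, Nfkb1 55.6, 322 and 40.6 and Rela 119, 207 and 107. Nlrp2, the inflammasome gene of the title, had 4, 6 and 4 raw counts in all over the 5 libraries of each group and was not tested.

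No gene of the chemokine, cytokine and interferon-stimulated lists met the rule, which 4.84% of all genes tested met. Of 18 chemokine genes tested 13 were called higher in the pooled contrast, but none was on one side in all 10 libraries, and the same was true of 20 cytokine genes, 9 of them called higher. Of 35 interferon-stimulated genes, 11 were called higher and none met the rule, although Shfl, outside that list, is interferon-induced and did. Cxcl1, the chemokine, shows what lies behind such counts, with 10.5, 2242 and 6.35 CPM in control, LPS and Rg1 plus LPS. A pooled call therefore does not mean a change in both groups. Of 40 cytosolic ribosomal protein genes 24 were called higher and of 49 cell cycle genes 14, against 13.4% of all genes tested, and none of either met the rule. Among 35 extracellular matrix genes, 15 microglia and macrophage markers and 13 mitochondrially encoded genes none met it in either direction. At the share of 4.84%, lists of these sizes would hold few such genes, so a list without any is near what all genes tested show.

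Other lists contributed a few genes each. Their counts are to be read beside the 2.77% lower and 2.08% higher among all genes tested by the rule of position. WNT pathway genes gave 4 lower of 35 tested and 1 higher: Wnt7a, a ligand, was 29.6 ± 2.30 CPM in control, 13.8 ± 1.20 with LPS and 19.7 ± 6.05 with Rg1 plus LPS, Lrp6, a coreceptor, 71.3 ± 7.90 CPM in control, 56.8 ± 3.97 with LPS and 46.8 ± 6.61 with Rg1 plus LPS, and the nuclear factors Tcf7 and Tcf7l1 went opposite ways, Tcf7 at 61.8, 43.3 and 46.4 and Tcf7l1 at 28.6, 36.6 and 37.3 CPM in control, LPS and Rg1 plus LPS. Wnt7a lost its place under library-size scaling and Tcf7 after the length trend was removed. Among 45 semaphorin, plexin, ephrin and Eph genes, Sema7a, Plxna4 and Ephb3 were lower and Efna2 higher. Plxna4 was 6.94 ± 0.966 CPM in control, 4.99 ± 0.510 with LPS and 3.92 ± 1.07 with Rg1 plus LPS, and Efna2, which lost its place after the length trend was removed, 3.44 ± 0.332 CPM in control, 6.44 ± 0.768 with LPS and 5.35 ± 0.936 with Rg1 plus LPS. Among 21 p53 targets Plk2 and Btg2 were higher, and Pmaip1, a death-promoting BCL2 family member, and Perp, a desmosomal protein, were lower, at 79.1, 56.5 and 35.3 and 166, 145 and 129 CPM in the same order. Of 27 TNF receptor and TRAF genes, Traf2 and Traf4 were higher, at 15.9, 24.8 and 18.3 and 24.2, 43.3 and 28.2, while Traf5 was lower. Traf2 and Traf4 lost their places under DESeq2 size factors and with no filter on low counts, and Traf4 also after the length trend was removed.

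**Figure D4:**
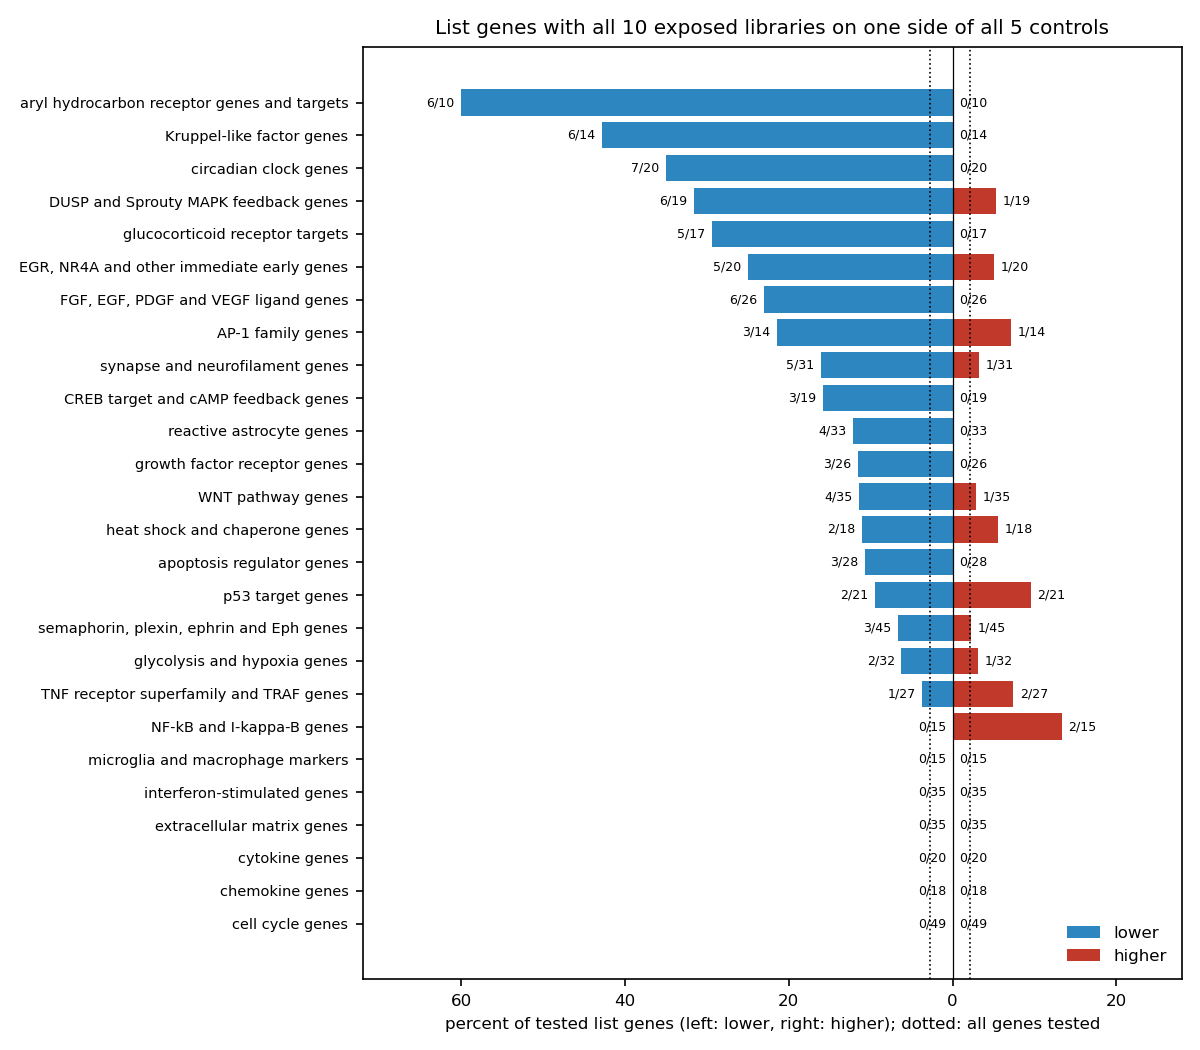
Bars give, for selected gene lists, the percent of tested genes that were lower (left) or higher (right) in all 10 exposed libraries than in all 5 controls, with the number of genes beside each bar. Dotted lines mark the same percent over all genes tested, 2.77% lower and 2.08% higher. The AhR list reaches furthest to the left, and the chemokine, cytokine and interferon-stimulated lists have no gene on either side.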

How the data were processed

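Primary astrocytes of mouse brain gave 15 libraries of polyadenylated RNA, 5 each of control, LPS and Rg1 plus LPS, prepared with TRIzol and a VAHTS Universal V6 kit per the labels' protocols. Raw counts for 25748 gene symbols, as deposited by the authors, were used here for all tests, beside FPKM, which divides each count by gene length and library total. Per the submitters' processing notes the builds were GRCm38 and mm10. The aligner, the counting tool, the annotation and the strandedness were not given in the sources used here, so overlapping and antisense genes cannot be separated. The deposited FPKM values were used to recover 1 length per gene (25711 genes, 37 rows per file with damaged symbols left out). Levels were compared between genes by FPKM recomputed from TMM-scaled CPM and these lengths.

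Counts were analysed with edgeR 4.0.16 in R 4.3.3: filterByExpr by group (15362 genes kept), TMM scaling, and a single robust quasi-likelihood fit over all 15 libraries with no term but group, the 3 groups sharing 1 estimate of spread. Contrasts were the mean of both exposed groups against control and Rg1 plus LPS against LPS, two-sided, with Benjamini-Hochberg adjustment over all genes and 0.05 as threshold. Fold changes of each exposed group against control share the controls and are given with SE and no p. Libraries of 34.2 to 41.8 M counts set the precision. The methods were tested on simulated data.

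The genes, the 66 lists (1386 symbols, 1380 found, 6 not analysed here) and the tests were chosen with earlier results of these data known. Genes were named by a rule: the 10 in each direction with the largest smaller fold change, at 5 CPM or more. To these were added the 5 most different between the exposed groups each way (pooled log2 size of at least 0.58), the 5 with no call and the narrowest interval, up to 3 per direction of lists with 4 or more genes, the title genes and those at the margin. Further list members, and genes outside the set named for contrast, were chosen after their values were seen. Alternatives were library-size and DESeq2 scaling, DESeq2 1.42.0, limma 3.58.1 voom, no filter, a replicate block, removal of a length trend, and leaving out each library. The replicate numbers come from the titles. By the correlation of deviations from group means, all 5 same-numbered LPS and Rg1 plus LPS pairs were over 0.1 (0.15 to 0.653), while 5 of 10 pairs with a control were (-0.399 to 0.358). Some pairs with different numbers were as high, such as LPS replicate 4 with Rg1 plus LPS replicate 1 (0.705). A library's best match in another group had its own number in 7 of 30 cases, so the numbers do not establish pairing. The main fit has no term for them, and the replicate block is given as an alternative. Some results are not reported here.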

Additional observations from a re-analysis of the deposited data

Results flagged for a closer look

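Within a group of 5 libraries, the highest or lowest value was set apart from the rest by Dixon's criterion (0.71 for 5 values) in 28 of 399 combinations of gene and group. Chance flags about 1 in 20. In control, replicate 5 was high for Slc16a10 (9.95 CPM), Npas4 (12.1), Scg2 (3.92) and Met (92.3). Replicate 4 was high for Cry1 (25.3) and Gja1 (1035) and low for Cxcl1 (6.94), and replicate 3 was low for Btg2 (41.0) and Rfx2 (20.7).

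In LPS, replicate 4 was high for Areg (2.79), Klf5 (12.5), Dusp10 (31.6), Vegfa (65.7) and Pde4d (17.0). Replicate 3 was high for Rasl11b (11.3) and Fosl2 (565) and low for Acin1 (81.4) and Serpinb2 (1.54). Replicate 5 was high for Wdr74 (22.7).

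In Rg1 plus LPS, replicate 1 was high for Nfkbia (54.7), Fosb (13.8), Serpinb2 (0.459) and Slc16a10 (3.77). Replicate 3 was low for Ahrr (0.371), Emp1 (201.4) and Nptx2 (0.643) and high for Fnbp1 (259). Replicate 2 was high for Arhgap29 (56.4).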

How the results depend on the processing

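The number of genes on one side of all controls depends on how many libraries must agree. Leaving out 1 library at a time gave 309 to 442 higher and 445 to 558 lower genes. An alternative chosen after seeing the data, without LPS replicates 2 and 3, gave 576 and 682, from fewer libraries. A gap of at least 25% between the nearest libraries left 13 and 119. Under both other scalings and the length correction, 186 of 319 higher and 333 of 425 lower genes kept their place. Higher genes farther from control with Rg1 numbered 54, but 31 with no filter on low counts, 93 without LPS replicate 3 and 90 without LPS replicates 2 and 3, with 45 to 93 over single libraries left out. The other ranges over single libraries were 41 to 70 for higher genes nearer to control, 43 to 57 for lower genes nearer, 112 to 149 for lower genes farther, and 1468 to 2222 higher and 1324 to 2132 lower calls in the pooled contrast. The share of pooled calls that were higher was 54.6%, with 47.5 to 58.9% over the alternatives. Between the exposed groups, the log2 difference turned for Fnbp1 to 0.20 (adjusted p = 0.00748) and for Vim to -0.0015 after removal of the length trend, and the cause was not tested.

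With the replicate block, 2145 genes were called higher and 2130 lower in the pooled contrast, and higher and lower genes nearer to control were 54 and 50, farther 55 and 133. Between the exposed groups the block added the calls of Dusp5, Klf5, Plxna4 (adjusted p = 0.0341) and Perp (adjusted p = 0.0266), ended that of Pdgfra (adjusted p = 0.0736 against 0.043), and changed no other such call of a named gene. The call of Pdgfra was lost in 14 of 23 alternatives.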

Other observations

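Genes that no list placed also stood well apart from control, and these were singled out after their values were seen. Arrdc3, an arrestin-domain protein gene, was at 82.5 CPM in control, 20.9 with LPS and 20.8 with Rg1 plus LPS. Rnf217, a ubiquitin ligase gene, was at 71.9, 25.1 and 24.4 CPM in the same order. Slc26a2, a sulfate transporter gene, was at 39.0, 12.2 and 5.31, and Lmcd1, a LIM-domain cofactor gene, at 33.0, 5.15 and 8.00. Mnt, an antagonist of MYC, was at 73.2, 18.6 and 28.8 CPM. For each of these the nearest exposed library was at least 2 times below the lowest control.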
